A study of Populus trichocarpa with 18 samples.

Results

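Control protoplasts of Populus trichocarpa, the black cottonwood tree, were compared at 25 h and 12 h after transfection. The libraries compared were 6 of the 18 RNA-seq libraries of the study, chosen by their labels. They were 3 libraries of sGFP protoplasts at 25 h and 3 at 12 h, set against each other within replicate number. The other libraries of the study entered the fit as well, unless stated otherwise. Protoplasts are cells whose wall has been digested away, and the tissue of origin was differentiating xylem of the stem, where newly formed wood cells lay down a thickened wall. The plants were kept in a greenhouse, and every group was transfected with DNA in polyethylene glycol. The sGFP groups received only the plasmid for a green fluorescent protein. The PtrSND1-B1 groups received the same protein together with PtrSND1-B1, which belongs to the NAC-domain transcription factors that switch on secondary wall formation in wood. Both constructs were sampled at 7, 12 and 25 h in 3 libraries each. Whether libraries of a group stem from separate plants or isolations is not in the labels, so the p-values reflect the spread of these particular libraries, and that spread may be technical. Such tissue holds several cell types, and in bulk RNA a change in the share of a cell type and a change in RNA per cell cannot be told apart.

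A plant cell that loses its wall is wounded, cut off from its neighbours and exposed to osmotic stress, and in culture it begins to build a new wall. Xylem cells in the stem at this stage are known for making cellulose, xylan and lignin, and that programme depends on position in the tissue. The sGFP time course shows how transcript levels moved in such isolated cells without the added transcription factor, and it is the baseline against which effects of PtrSND1-B1 are read. The identifiers in the deposited count table are paired with no gene names there, and 0 of them occur in the RefSeq gene table used here. Changes are therefore described by number, size and abundance, and 4 genes are followed by identifier, with no function given. For the same reason the tissue label was not checked against xylem markers.

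The 25 h sGFP libraries held 13970708, 2736863 and 7818035 counts for replicates 1, 2 and 3 over the first model of each locus, and the 12 h libraries 9107896, 6684101 and 4746555. Reads were found for 27877 to 32110 first models at 25 h and 30195 to 31655 at 12 h. Depth was thus least in 25 h replicate 2 and greatest in 25 h replicate 1. The 10 most abundant models took 3.6 to 6.05% of the counts at 25 h and 2.78 to 5.16% at 12 h.

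Control protoplasts at 25 h differed from those at 12 h in the transcripts of many genes, in both directions. With the replicate number as a block, 1056 of 23777 tested genes rose (4.44%) and 1164 fell (4.9%), by edgeR's quasi-likelihood test at a Benjamini-Hochberg adjusted p under 0.05. This fit over 18 libraries treats those of the 2 constructs with the same time and number as independent. Its p-values for a change over time are therefore too small, as described below. The rises had a median log2 change of 0.97 with quartiles of 0.69 and 1.5, and the falls a median of -0.96 with quartiles of -1.39 and -0.65. The median over all tested genes was 0.0039, which the TMM scaling largely fixes. At least 2-fold changes were seen for 506 of the rises and 547 of the falls, and at least 4-fold changes for 109 and 66. At the stricter adjusted p of 0.01, 454 rises and 406 falls remained.

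How many genes passed depended on how the libraries were set against each other. Without the block, 107 genes were higher (0.45%) and 56 lower (0.236%), and all 163 were among the 2220 called with it. With only the 9 sGFP libraries in the blocked fit, 374 were higher and 353 lower. With only the 6 libraries compared, edgeR called 0 in either direction, while 3317 genes had an unadjusted p under 0.05. With library size alone as the scaling, 628 were higher and 1338 lower, so 31.9% of calls were rises, against 47.6% with TMM. Without 25 h replicate 1 or any single 12 h library the rises numbered 566 to 636. Without any of these or without 25 h replicate 2 the falls numbered 528 to 723. Leaving out 25 h replicate 3 instead raised the counts, to 1546 higher and 1663 lower.

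**Figure D1:**
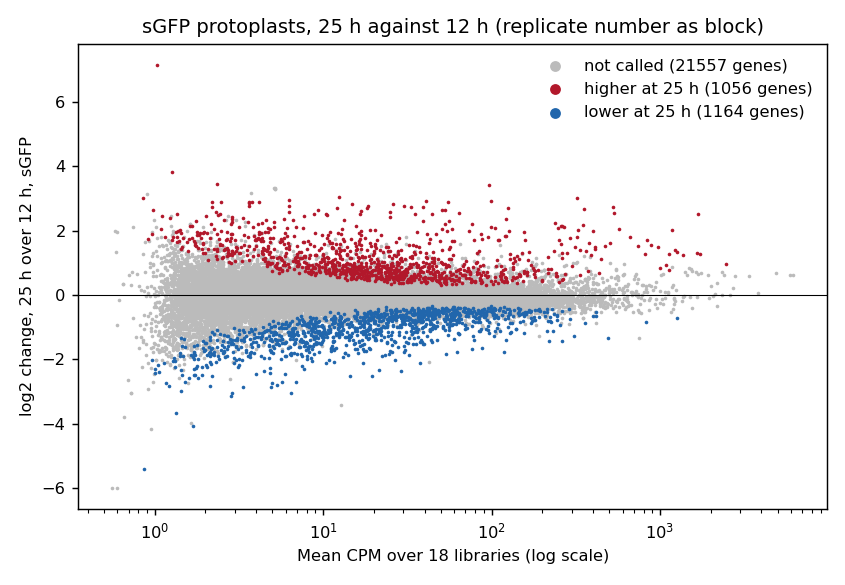
Each point is a gene, placed by its mean level in CPM, which is counts scaled to a common library size, over 18 libraries on a log scale and by its log2 change at 25 h over 12 h in sGFP protoplasts. The 1056 genes called higher and 1164 called lower in the blocked fit over 18 libraries lie on both sides of 0 at every abundance. Calls of less than 2-fold are mostly among the more abundant genes.

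The levels of the called genes describe the size of the change and are no test of it, since the same values chose the genes. Genes that rose had a median level of 31.6 CPM (counts scaled to a common library size) at 25 h and 16.6 CPM at 12 h, and genes that fell 10.5 CPM at 25 h and 20.4 CPM at 12 h. Levels over 100 CPM were reached by 199 of the rising genes at 25 h, against 116 of them at 12 h. Of the falling genes, 56 were over 100 CPM at 25 h, against 110 at 12 h. Some genes moved near the limit of detection: 39 of those that rose averaged under 1 CPM at 12 h, and 126 of those that fell averaged under 1 CPM at 25 h.

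Genes were also grouped by their mean CPM over 18 libraries. Of 2196 genes over 100 CPM, 132 rose with a median of 1.03 on the log2 scale and 107 fell with a median of -0.63. In this class 66 of the rises but only 17 of the falls were at least 2-fold. Of 11697 genes at 10 to 100 CPM, 623 rose and 678 fell, with medians of 0.78 and -0.77, of which 194 and 207 were at least 2-fold. Of 9802 genes at 1 to 10 CPM, 297 rose and 377 fell, with medians of 1.45 and -1.44. The larger medians at low abundance go with a lower precision, since the median standard error (SE) of a log2 change was 0.35 at 1 to 10 CPM and 0.17 over 100 CPM. In the class of 1 to 10 CPM, 242 of the 297 rising genes and 321 of the 377 falling genes changed by 2-fold or more. Smaller changes thus passed the test as well, but made up the lesser part of these calls. Of 82 tested genes under 1 CPM, 4 rose and 2 fell.

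The genes that rose came to hold a larger share of the counts. They took 14%, 10.9% and 9.32% of the counts of tested genes in 25 h replicates 1, 2 and 3, against 5.51%, 5.54% and 4.69% at 12 h. At 7 h, a time outside this contrast although its libraries entered the fit, their share was 2.97 to 3.49%. The genes that fell took 2.56%, 2.89% and 2.55% at 25 h, against 4.13%, 4.79% and 5.44% at 12 h, and 6.59 to 7.14% at 7 h. Since the genes were chosen by the difference between 25 and 12 h, these shares describe its size and are no test of it. The gain was uneven between genes: summed over the rising genes it came to 68557 CPM, of which 10 genes held 26.7%, and 30 genes held 50%. The loss summed to 19317 CPM and was spread more widely, with 11.1% in 10 genes and 50% in 153.

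**Figure D2:**
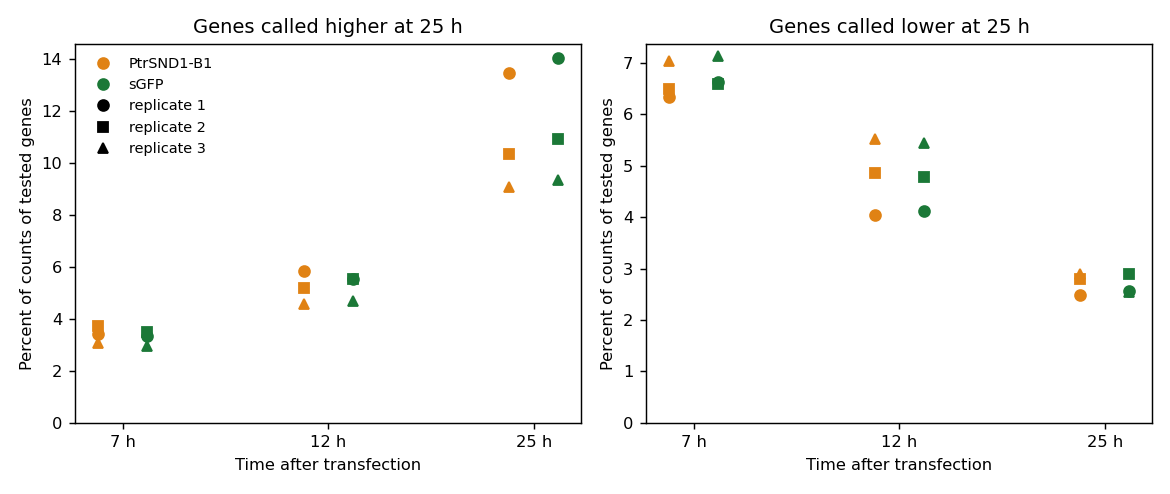
Share of the counts of tested genes taken by the genes called higher (left) and lower (right) at 25 h in sGFP protoplasts, for each of 18 libraries, with PtrSND1-B1 libraries left of sGFP libraries at each time. The rising genes hold 9.32 to 14% of the counts in sGFP libraries at 25 h, against 4.69 to 5.54% at 12 h, and the PtrSND1-B1 libraries lie close to the sGFP libraries of the same number.

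A rule of size picked 4 genes: called, the same direction in each replicate number, and a mean of at least 5 CPM at the higher time. The rule was met by 967 rises and 963 falls, and the 2 largest of each are given. Genes with still larger changes, up to 7.15 and down to -5.40, did not meet it.

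The largest rise by this rule was that of POPTR_0010s04580.1. Its level was 10.4, 2.06 and 3.06 CPM in 25 h replicates 1, 2 and 3, from 139, 6 and 19 reads, against 0.636, 0.139 and 0.603 CPM at 12 h, from 5, 1 and 3 reads. All 25 h libraries were above all 12 h libraries, and replicate 1 was far the highest at 25 h. The mean was 5.17 ± 4.55 CPM at 25 h and 0.459 ± 0.278 CPM at 12 h (SD, n = 3 each). The blocked fit gave a log2 change of 3.45 (with SE 0.575 and edgeR adjusted p = 0.00184). Without the block the log2 change was 3.55 (adjusted p = 0.0433). With only the 9 sGFP libraries in the blocked fit it was 3.43 (edgeR adjusted p = 0.0235).

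POPTR_0011s16140.1 had the smallest p of all 23777 genes tested. Its level was 408, 189 and 250 CPM in 25 h replicates 1, 2 and 3, against 35.9, 21.8 and 20.5 CPM at 12 h. The groups were far apart, and the change was alike in each number, at 3.49, 3.10 and 3.59 on the log2 scale. The mean was 283 ± 113 CPM at 25 h and 26.1 ± 8.53 CPM at 12 h (SD, n = 3 each). The blocked fit gave a log2 change of 3.41 (with SE 0.196 and edgeR adjusted p = 6.48e-07). It was also called without the block (adjusted p = 0.0011), and with only the 9 sGFP libraries in the blocked fit (edgeR adjusted p = 0.00227). Its mean at 7 h was 2.73 ± 0.702 CPM (SD, n = 3), and the log2 change at 12 h against 7 h was 3.18 (SE 0.245, edgeR adjusted p = 1.34e-05). The level thus stood higher at each successive time. Both log2 changes share the 12 h libraries.

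The largest fall was that of POPTR_0001s25580.1, with 0.374, 0 and 1.13 CPM in 25 h replicates 1, 2 and 3, against 2.04, 0.278 and 14.3 CPM at 12 h. The 0 reads in 25 h replicate 2 allow a level of up to 1.03 CPM, taken as 3 reads. The groups overlapped, because 12 h replicate 2 was also low, and 12 h replicate 3 was by far the highest of the 6. The mean was 0.5 ± 0.574 CPM at 25 h and 5.53 ± 7.62 CPM at 12 h (SD, n = 3 each). The blocked fit gave a log2 change of -3.03 (with SE 0.735 and edgeR adjusted p = 0.018). With only the 9 sGFP libraries in that fit it was -2.98 (edgeR adjusted p = 0.0348). The call was lost without the block, where the log2 change was -3.22 (adjusted p = 0.324), without 25 h replicate 1, where it was -3.07 (adjusted p = 0.0756), and without 12 h replicate 3, where it was -1.93 (adjusted p = 0.204).

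POPTR_0259s00200.1 fell to 0.299, 1.03 and 1.61 CPM in 25 h replicates 1, 2 and 3, against 3.05, 2.92 and 11.1 CPM at 12 h. All 25 h libraries were below all 12 h libraries, and replicate 3 was the highest at both times. The 25 h values came from only 4, 3 and 10 reads, against 24, 21 and 55 reads at 12 h. The mean was 0.98 ± 0.656 CPM at 25 h and 5.68 ± 4.66 CPM at 12 h (SD, n = 3 each). The blocked fit gave a log2 change of -2.69 (with SE 0.389 and edgeR adjusted p = 0.000699). Without the block the log2 change of -2.65 was not called (adjusted p = 0.136). With only the 9 sGFP libraries in the blocked fit the log2 change was -2.68 (edgeR adjusted p = 0.0219). At 7 h its mean was 10.4 ± 5.6 CPM (SD, n = 3), and the log2 change at 12 h against 7 h was -0.97 (SE 0.29, edgeR adjusted p = 0.0605).

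**Figure D3:**
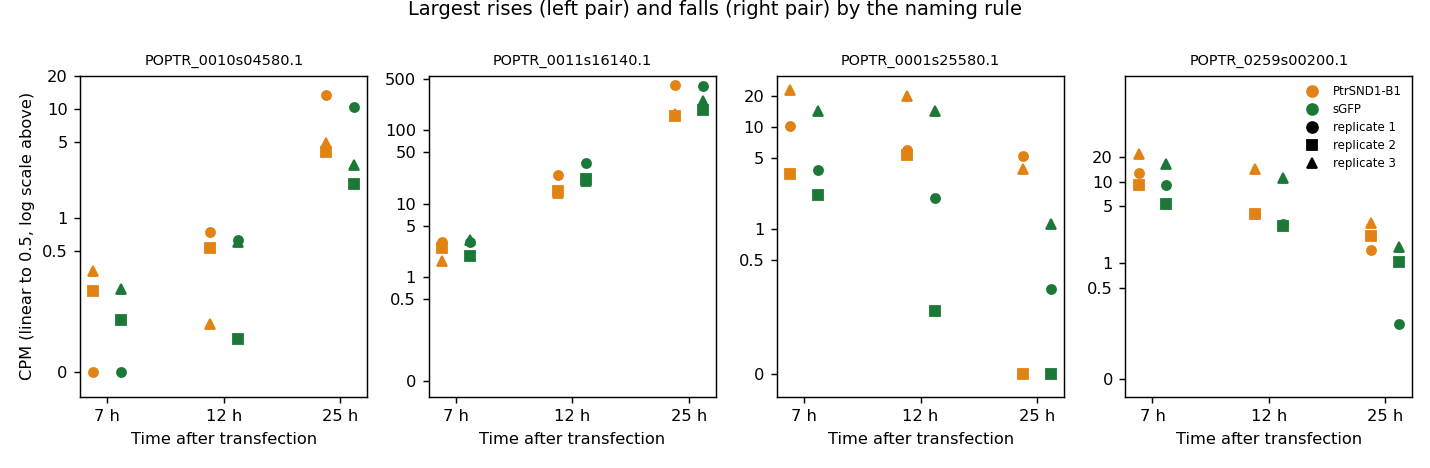
CPM of 4 genes in 18 libraries by time after transfection, on an axis that is linear up to 0.5 CPM and logarithmic above, with PtrSND1-B1 left of sGFP and a symbol for each replicate number. POPTR_0011s16140.1 is at 189 to 408 CPM in sGFP libraries at 25 h, against 20.5 to 35.9 CPM at 12 h, while replicate 3 lies above the other numbers in both falling genes at 12 h.

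The 3 replicate numbers did not carry the same change across the whole transcriptome. The change within replicate 1 correlated across 23777 genes with that within replicate 2 (Pearson's r = 0.498), but hardly with that within replicate 3 (r = 0.0319), and replicates 2 and 3 had r = 0.239. These pairs of libraries share no library. Genes are not independent, so the values are descriptions. Of the variance of log2 CPM among the 6 libraries, summed over all tested genes, time held 26.3% with 1 degree of freedom, the replicate number 46.6% with 2 and the rest 27.1% with 2.

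In replicate 1, 1783 genes were at least 2-fold higher at 25 h and 1889 at least 2-fold lower. In replicate 2 there were 966 and 1558, and in replicate 3 2076 and 1735. Replicates 1 and 3 moved 557 genes at least 2-fold in opposite directions and 717 in the same direction. For replicates 1 and 2 these numbers were 103 and 1058, and for replicates 2 and 3 they were 184 and 833. At least 2-fold changes in every number were found for 227 genes upward and 212 downward, of which 218 and 193 were called. Of all tested genes, 4.44% were called higher and 4.9% lower. The same libraries chose these genes and entered the test, so their calls are no separate support. Over all tested genes, 38.1% had the same direction in the 3 numbers.

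**Figure D4:**
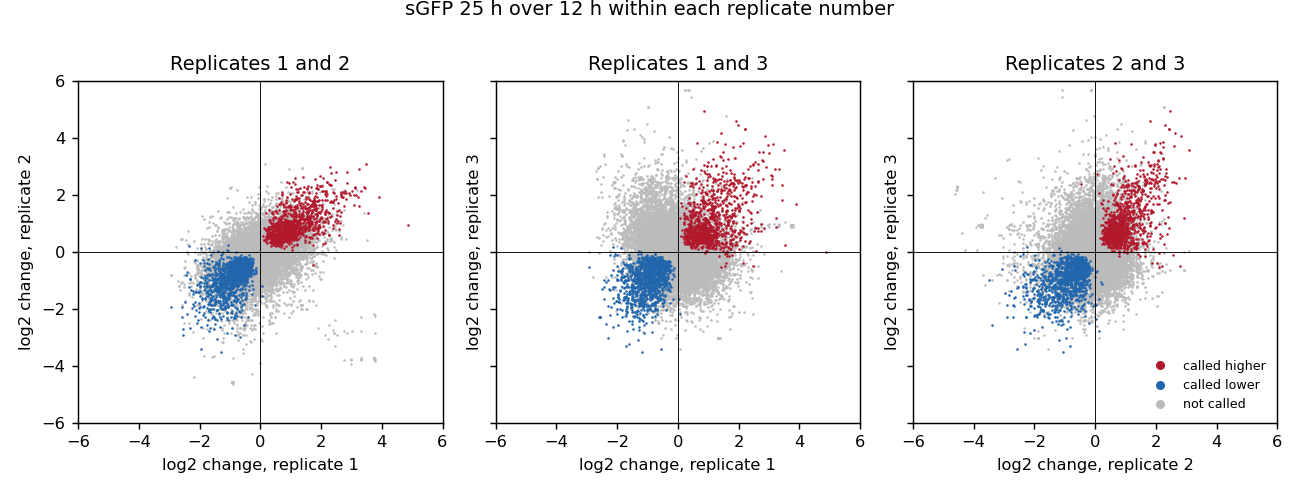
Each point is a gene, placed by its log2 change at 25 h over 12 h in sGFP protoplasts within a replicate number on each axis, with genes called higher in red and lower in blue. The cloud of all genes leans along the diagonal for replicates 1 and 2 (r = 0.498) and has no slope for replicates 1 and 3 (r = 0.0319).

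Among the called genes the numbers went together, as the test requires. The median change of the rising genes was 1.00, 0.86 and 0.84 on the log2 scale in replicates 1, 2 and 3, and that of the falling genes -0.92, -0.84 and -0.88. Of the rises, 1040 had the same direction in every number, and 15 went down in replicate 3. Of the falls, 1149 had the same direction in every number. Every 25 h library lay above every 12 h library for 777 of the 1056 rises (7.79% of all tested genes did so), and below for 682 of the 1164 falls (7.6% of all tested genes did so). For the other 279 rises and 482 falls the groups overlapped.

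Nothing in the labels ties a replicate number to a batch. The deviations of 25 h and 12 h sGFP libraries from their group means correlated by 0.0555, 0.537 and 0.208 for numbers 1, 2 and 3. Number 1 stayed under the 0.1 set for pairing, and 25 h replicate 1 correlated better with 12 h replicate 2 (0.14). Likewise 25 h replicate 3 correlated better with 12 h replicate 1 (0.265) than with its own number. The block for sGFP protoplasts at these times therefore follows the comparison asked for, and not a pairing that the data show throughout. In addition, libraries of the 2 constructs with the same time and number deviated together (0.51 to 0.746), while the fit over 18 libraries treats them as independent. For a change over time, its 10 residual degrees of freedom are then too many and its p-values too small. The fit of the 9 sGFP libraries avoids this. For the difference between the constructs its p-values are too large instead, as given below.

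The same span was examined in PtrSND1-B1 protoplasts. Their libraries lie outside the sGFP contrast but entered the same blocked fit. The lists of called genes of both constructs therefore come from a shared fit. In this blocked edgeR fit 930 genes were higher in PtrSND1-B1 protoplasts at 25 h (3.91%) and 1113 lower (4.68%). Their log2 medians were 0.96 and -0.96. Without the block 100 were higher (0.421%) and 70 lower (0.294%), and when scaled by library size alone 599 were higher and 1435 lower. Without 25 h replicate 3 the blocked counts were 768 and 997, and without any other single library of these groups they were 479 to 632 and 499 to 721. Called in the same direction under both constructs were 701 rises, which are 75.4% of those of PtrSND1-B1 and 66.4% of those of sGFP protoplasts. The shared falls numbered 721, which are 64.8% and 61.9% of the lists of PtrSND1-B1 and sGFP protoplasts. No gene was called in opposite directions.

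The genes that rose in sGFP protoplasts had a median log2 change of 0.86 in PtrSND1-B1 protoplasts, against 0.97 in sGFP protoplasts, and 99.7% of them had the same direction. For the falls these medians were -0.87 and -0.96, and 99.7% had the same direction. Over all tested genes 79.5% did, and over the genes not called in sGFP protoplasts 77.4%. Every 25 h PtrSND1-B1 library lay above every 12 h PtrSND1-B1 library for 65.9% of the sGFP rises (7.69% of all tested genes), and below for 46.7% of the sGFP falls (7.8% of all tested genes). The changes of both constructs correlated across 23777 genes with Pearson's r = 0.757. Because libraries of the same time and number deviate together, this likeness is no independent repeat. Within numbers, the PtrSND1-B1 and sGFP changes correlated by 0.711, 0.505 and 0.712 for replicates 1, 2 and 3, and by 0.0389 to 0.523 between different numbers.

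**Figure D5:**
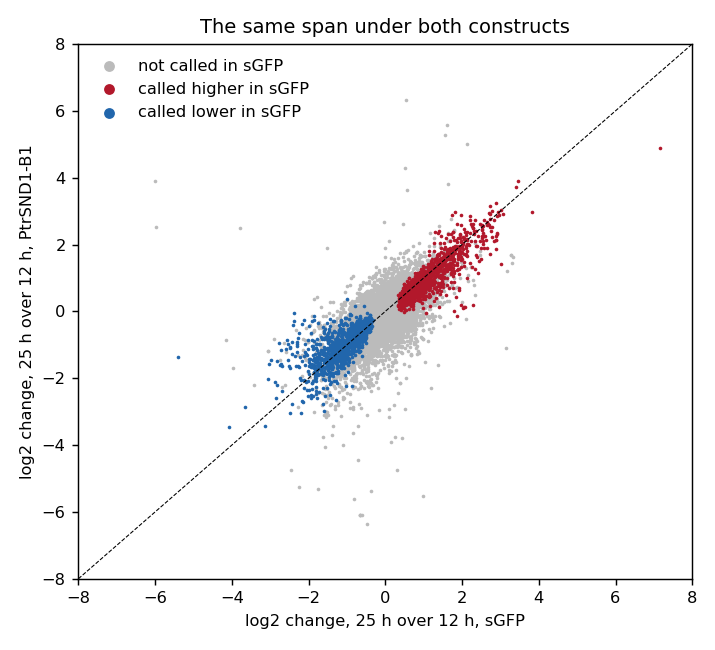
Each point is a gene, placed by its log2 change at 25 h over 12 h in sGFP protoplasts (horizontal) and in PtrSND1-B1 protoplasts (vertical), with genes called in sGFP protoplasts coloured and the dashed line marking equal change. Most called genes lie near the line, and 99.7% of the rises and of the falls have the same direction under both constructs. For 78 of the 2220 called genes the 2 changes differ at least 2-fold, but no difference passed its test. Such a count over all tested genes was not made.

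No gene passed the test of a difference between the constructs. The test of the PtrSND1-B1 change minus the sGFP change called 0 of 23777 genes by edgeR and 0 by DESeq2, both with the block. In edgeR 330 genes (1.39%) had an unadjusted p under 0.05, and 1239 (5.21%) did when a term for each time and number took the place of the block, again with 0 called. The median SE of this difference was 0.347 on the log2 scale with the block, which takes libraries of the same time and number as independent, and 0.235 with the terms for time and number. The deviations that both constructs share cancel in this difference. With the block its SE and p-values are therefore generally too large, and the 0 calls of the blocked tests say little. The SEs of the differences of the 4 named genes are given for both fits. For POPTR_0011s16140.1 the log2 change was 3.71 in PtrSND1-B1 protoplasts and 3.41 in sGFP protoplasts, a difference of 0.29 (SE 0.263, and 0.18 with the terms). POPTR_0010s04580.1 changed by 3.89 in PtrSND1-B1 protoplasts and 3.45 in sGFP protoplasts, a difference of 0.44 (SE 0.979, and 0.744 with the terms). POPTR_0259s00200.1 had a log2 change of -1.63 in PtrSND1-B1 protoplasts (edgeR adjusted p = 0.0143), against -2.69 in sGFP protoplasts. The difference for it was 1.07 (SE 0.559), and 0.95 (SE 0.436) with the terms. For POPTR_0001s25580.1 the log2 change was -1.58 in PtrSND1-B1 protoplasts (edgeR adjusted p = 0.124) and -3.03 in sGFP protoplasts, a difference of 1.45 (SE 0.971), and of 1.71 (SE 0.786) with the terms. By edgeR's test the adjusted p of each of these 4 differences was 1 when rounded with the block, and 0.929 to 0.98 with the terms.

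The step from 7 to 12 h in sGFP protoplasts is given beside the later step, and both share the 12 h libraries. At 12 h against 7 h, 688 genes were higher (2.89%) and 846 lower (3.56%) with the block. The genes that rose at 25 h against 12 h had a median log2 change of 0.46 at 12 h against 7 h and of 0.97 at 25 h against 12 h. Those that fell had medians of -0.52 and -0.96 in the same order of times. Over all tested genes the medians were -0.0034 and 0.0039.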

How the data were processed

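RNA-seq was measured in 18 libraries in 6 groups of 3, assigned from their titles. The deposited file holds raw counts of reads per gene model, as the authors left them. The submitters' processing notes list TopHat and edgeR, but neither role nor version. The genome build, annotation, counting tool and strandedness were not given in the sources used, so counts of close copies, overlapping genes and antisense partners are uncertain.

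Only the first model of each of 40668 loci was used (45033 models in all). The analysis used edgeR 4.0.16 under R 4.3.3. Filtering by filterByExpr left 23777 genes, scaling was by TMM, and a quasi-likelihood model with group means and the replicate number as an additive term was fitted to 18 libraries (10 residual degrees of freedom, coefficient of variation 19.2%, against 29% without the block). Adjusted p-values are Benjamini-Hochberg over all genes, from edgeR unless another tool is named. An SE is the log2 change divided by the square root of F. CPM uses TMM-scaled sizes, and log2 CPM within numbers a prior count of 2. Reads are not independent molecules, so floors of 3 reads cover counting error only.

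The 4 named genes follow a rule of size for identifiers without names. Pathway lists needed product names and were not used. The comparison, tests and alternatives were chosen with earlier results of these data known. Alternatives were the fit without the block, fewer libraries, other scalings and filters, DESeq2 1.42.0, all models and single libraries left out. Leaving out a replicate number, and a term for each time and number, were added after the data were seen.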

Additional observations from a re-analysis of the deposited data

How the results depend on the processing

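Without the replicate block, 100 genes were higher and 70 lower at 25 h against 12 h in PtrSND1-B1 protoplasts, and 107 higher and 56 lower in sGFP protoplasts. With the replicate block and only the 9 libraries of the construct, these counts were 540 and 511 for PtrSND1-B1, and 374 and 353 for sGFP. With the block and only the libraries of the groups compared they were 199 and 122 for PtrSND1-B1, and 0 and 0 for sGFP. With library size alone, 599 genes were higher in PtrSND1-B1 and 628 in sGFP protoplasts, and the median of all genes moved to -0.12 and -0.08. Without a single library, the PtrSND1-B1 counts ranged over 479 to 768 higher and 499 to 997 lower, and the sGFP counts over 566 to 1546 and 528 to 1663. Without replicate 1, 2 or 3 of all groups, 309, 166 or 1081 were higher and 266, 136 or 1202 lower in PtrSND1-B1, and 358, 239 or 1639 higher and 247, 218 or 1960 lower in sGFP. The cause was not tested. RLE, other filters on low counts, DESeq2 and all models kept the counts of both constructs within 1.5 times, and the difference between constructs was called for 0 genes in each alternative run. The 4 named genes reversed in no alternative. POPTR_0011s16140.1 lost its call only with the 6 libraries compared (edgeR adjusted p = 0.0736), POPTR_0010s04580.1 in 2 of 17 alternatives, POPTR_0259s00200.1 in 2 of 18 and POPTR_0001s25580.1 in 6 of 17. Alternatives whose filter removed a gene are not counted for it. With the 6 libraries, POPTR_0010s04580.1 (edgeR adjusted p = 0.0879) and POPTR_0259s00200.1 (0.105) were not called either, and POPTR_0001s25580.1 was not tested. Gene lists by product name could not be run. Depth limits low genes most, with 3 reads worth 1.03 CPM in 25 h replicate 2.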

Other observations

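A few of the 40668 first gene models had reads at one time only. Reads were found in all 3 of the 12 h sGFP libraries and in none at 25 h for 114 models, with at most 28 reads in all, although the 25 h libraries held 24525606 reads together. The reverse, reads in all 3 libraries at 25 h and in none of the 12 h libraries, was found for 27 models, with at most 15 reads in all, and the 12 h libraries held 20538552 reads together. Since reads were required in every library of a group, the shallowest library limits each count. It held 2736863 counts at 25 h and 4746555 at 12 h, so the 2 counts of models are not directly comparable. Loci with more than 1 model made up 113 of the 1056 rises and 91 of the 1164 falls, and 2619 of the 23777 genes tested.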
